A study of Mus musculus with 37 samples.

Results

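The genes described here are 9 enzymes of transsulfuration and one-carbon metabolism: Cbs, Cth, Mat2a, Ahcy, Shmt2, Mthfd2, Phgdh, Psat1 and Psph. They were taken by symbol from 3 tables of unique molecular identifier (UMI) counts, which together list 31533 gene symbols, and all 9 were in every table. They were chosen by function with earlier VIP and irradiation results of these data known, so their values below are a description, and an adjusted p-value only says where a gene lies in a test run over every gene.

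Vasoactive intestinal peptide (VIP) is a neuropeptide of the enteric nervous system, and the series asked what it does to the transcripts of murine jejunal organoids and their stem cells. In the first experiment, whole organoids from C57Bl/6 mice were left untreated (3 mice) or received 100 nM VIP for 72 h (4 mice, 3 of them also present untreated). In the second, Lgr5-EGFP+ cells were sorted from organoids of Lgr5-EGFP-IRES-CreERT2 reporter mice, untreated or after 100 nM VIP for 72 h (4 mice each). In the third, organoids of 4 such mice were non-irradiated or given 6 Gy X-rays, each without or with 100 nM VIP for 48 h, and Lgr5-EGFP+ cells were sorted again, giving 4 groups of 4. Every group was 1 culture per mouse, the sorted cells were those that expressed EGFP from the Lgr5 locus, and all organoids grew in a medium with N-acetyl-L-cysteine, EGF, Noggin and R-Spondin-1.

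Transsulfuration carries sulfur from methionine to cysteine. Mat2a makes S-adenosylmethionine, the methyl donor of the cell, from methionine; Ahcy hydrolyzes the S-adenosylhomocysteine left after methyl transfer to homocysteine; Cbs joins homocysteine with serine to cystathionine; and Cth cleaves cystathionine to cysteine, which feeds glutathione, taurine and hydrogen sulfide. Serine is made by Phgdh, Psat1 and Psph in sequence, and in mitochondria Shmt2 passes its one-carbon unit to folate, where Mthfd2 oxidizes it for purine and thymidylate synthesis. Several of these genes are known targets of the amino acid response, in which the transcription factor ATF4 acts on genes for amino acid synthesis and uptake.

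The libraries counted transcript 3′ ends, with 1 UMI standing for 1 captured transcript, so levels are given as CPM (UMI counts scaled to a common total), scaled by trimmed mean of M values within a table and not divided by gene length. Depth was 3722720 to 6330400 UMIs per whole-organoid sample, 575242 to 1104130 in the first sorted experiment and 1075720 to 1876730 in the irradiation experiment. All 7 epithelial markers examined exceeded 10 UMIs in a sample, against 2 of 12 markers of non-epithelial cells, whose summed level ran from 5.64 to 77.5 CPM. In bulk samples, fewer cells of a type and less RNA per cell cannot be told apart.

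1 pair of technical libraries stood apart. In whole organoids most cultures were sequenced as a pair of technical libraries, and over 7516 genes the pairs differed by a root mean square of 0.185 to 0.285 log2 CPM, except those of VIP-treated mouse 3, which differed by 0.635. The library nearest to the first of that pair was the untreated one of mouse 3, at 0.385, and the library nearest to the second was an untreated one of mouse 1, at 0.259. Cth stood at 69.0 CPM in the first and 219.9 CPM in the second of these libraries (scaled by the library's total UMIs alone), the 5 untreated libraries held 162.8 to 224.5, and the other 6 VIP libraries held 83.4 to 129.9. Whether either of the pair goes against its label was not tested. Both libraries, labelled VIP, were kept in the sums as deposited, and the calls of the 9 genes in whole organoids are also given without each of them.

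On the mouse assembly GRCm38 (GENCODE M21) all 9 genes are protein-coding and on the minus strand. Cbs lies at chr17:31608894-31637238, Cth at chr3:157894248-157925077, Mat2a at chr6:72432799-72439558, Ahcy at chr2:155059310-155074497 and Shmt2 at chr10:127517123-127522444. Mthfd2 lies at chr6:83305691-83325908, Phgdh at chr3:98313170-98339990, Psat1 at chr19:15904678-15947337 and Psph at chr5:129765558-129787449. Phgdh has a processed pseudogene, Phgdh-ps1, on chromosome 7. Exons of Mat2a, Ahcy, Psph and Shmt2 overlap a gene on the opposite strand (Particl, Gm45609, Cct6a and Ndufa4l2), and for Shmt2 the overlap is at its 3′ end, where reads could have been shared had the counting not used strand.

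RefSeq promoter windows (GRCm38.p6, 250 bases before to 50 after a start) were at hand for 8 of the 9 genes, all but Cth, with a pair of windows for Psat1. They were searched on both strands for 4 motifs. The C/EBP-ATF element TGATGNAA was in 0 of the 9 windows and 3.97% of 32851 windows of all genes, and the cAMP response element TGACGTCA was in 0 and 1.79%. The antioxidant response element core TGACNNNGC was in 2 windows (12.4% of all) and the E-box CACGTG in 1 (7.15% of all). The 3 windows that held a match are printed below 5′ to 3′ on the minus strand, with the match in capitals; for Phgdh and Psph it reads on the reverse strand.

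Cbs, chr17:31637156-31637455: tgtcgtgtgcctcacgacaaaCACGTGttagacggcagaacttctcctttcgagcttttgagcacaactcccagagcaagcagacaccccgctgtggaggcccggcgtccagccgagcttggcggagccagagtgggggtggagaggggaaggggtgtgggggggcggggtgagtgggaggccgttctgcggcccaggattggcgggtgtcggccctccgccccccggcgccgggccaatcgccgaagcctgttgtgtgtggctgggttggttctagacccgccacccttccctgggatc
Phgdh, chr3:98339920-98340219: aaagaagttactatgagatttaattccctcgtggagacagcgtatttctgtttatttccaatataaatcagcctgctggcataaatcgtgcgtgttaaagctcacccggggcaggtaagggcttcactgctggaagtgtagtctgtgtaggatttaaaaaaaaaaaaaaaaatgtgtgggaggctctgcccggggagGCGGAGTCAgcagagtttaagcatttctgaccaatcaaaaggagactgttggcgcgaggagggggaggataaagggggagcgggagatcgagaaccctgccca
Psph, chr5:129787204-129787503: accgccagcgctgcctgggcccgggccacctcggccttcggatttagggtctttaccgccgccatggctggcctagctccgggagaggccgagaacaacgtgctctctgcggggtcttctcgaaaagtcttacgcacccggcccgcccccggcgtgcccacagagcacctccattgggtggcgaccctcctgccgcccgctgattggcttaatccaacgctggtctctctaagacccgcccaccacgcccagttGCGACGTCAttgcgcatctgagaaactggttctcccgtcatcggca

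The match lay 229 bases before the start in Cbs, 53 before it in Phgdh and 4 after it in Psph. None of these matches was measured as a binding site.

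The first question was what VIP did to these transcripts in whole organoids, where differentiated and stem cells are pooled. VIP-treated organoids had lower levels of Cth, the cysteine-forming enzyme, of Mthfd2 and of the serine synthesis enzymes Psat1 and Psph, while Cbs was not called. Of the 9 genes, 4 passed an adjusted p of 0.05 in edgeR's quasi-likelihood test with mouse as a block, all of them lower, against 1.10% of 12727 genes called lower. Nothing is read from that number, since the genes were chosen with such results known. Mouse 4 had no untreated culture, so with the mouse block the fold changes and p-values in whole organoids rest on 3 pairs of cultures. Of the 4, Cth was the 1 that also passed without the mouse block and without mouse 2, and Psph did not pass in DESeq2 (adjusted p = 0.0579). Without the first technical library of VIP-treated mouse 3, 0 of the 9 genes and 0 of 12748 genes passed in edgeR. All 4 calls were thus lost where the second library alone stood for that culture. With mouse 3 left out altogether, 6 of the 9 genes passed, these 4 among them.

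Cth was at 170.0, 217.0 and 211.1 CPM in untreated organoids of mice 1 to 3 and at 112.5, 84.5, 129.7 and 113.8 CPM in VIP-treated organoids of mice 1 to 4. Every treated culture was below every untreated one. Its log2 fold change was -0.88 (adjusted p = 0.00116, SE 0.13), and without the second library of VIP-treated mouse 3 it was -1.15 (adjusted p = 3.74e-04, SE 0.14). Without the first it was -0.64 (adjusted p = 0.817).

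Mthfd2, the mitochondrial methylene-tetrahydrofolate dehydrogenase, was at 208.6, 238.9 and 188.2 CPM untreated and at 132.1, 115.0, 159.3 and 141.6 CPM with VIP. The groups did not overlap. Its log2 fold change was -0.65 (adjusted p = 0.00773, SE 0.13), or -0.80 (adjusted p = 1.79e-04, SE 0.09) without the second library of that pair and -0.50 (adjusted p = 0.929) without the first.

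In the serine branch, Psat1, the aminotransferase, was at 171.6, 205.5 and 192.8 CPM untreated and at 126.3, 115.0, 153.7 and 150.3 CPM with VIP. Psph, the phosphatase that releases serine, was at 68.2, 91.4 and 80.7 CPM untreated and at 47.0, 43.8, 67.4 and 53.8 CPM with VIP. Neither gene overlapped between the groups, and the highest treated culture was that of mouse 3 for both. Psat1 had a log2 fold change of -0.54 (adjusted p = 0.00918, SE 0.11) and Psph of -0.62 (adjusted p = 0.0157, SE 0.13). Without the second library of VIP-treated mouse 3 they were -0.63 and -0.74, and without the first they were -0.42 (adjusted p = 0.894) and -0.50 (adjusted p = 0.929).

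Phgdh, the first enzyme of the branch, was at 63.3, 61.7 and 61.2 CPM untreated and at 53.2, 36.2, 51.7 and 49.5 CPM with VIP. Every treated culture was again below the untreated ones, with a log2 fold change of -0.42 (SE 0.12) that did not pass (adjusted p = 0.0733). Shmt2, which takes the one-carbon unit from serine, had the highest level of the 9 genes, 308.0, 316.2 and 237.4 CPM untreated and 237.7, 201.9, 237.1 and 247.4 CPM with VIP. The groups overlapped through mouse 3, whose untreated and treated cultures were alike, and the log2 fold change of -0.34 (SE 0.11) did not pass (adjusted p = 0.118). Without the second library of VIP-treated mouse 3 both passed, Phgdh at -0.53 (adjusted p = 0.00820) and Shmt2 at -0.45 (adjusted p = 0.00419), so that 6 of the 9 genes were called lower. Over all genes, 1261 of 12684 were then called in either direction. With that library kept and the first of the pair left out, edgeR called 0 of the 9 and 0 of 12748 genes (1 and 720 at an unadjusted p under 0.05), and all 9 had a negative log2 fold change.

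The groups did not overlap for 5 of the 9 genes, all lower, against 4.08% of genes that were lower without overlap. The methionine cycle genes moved least: Mat2a had a log2 fold change of -0.04 (95% confidence interval -0.24 to 0.17) and Ahcy of -0.17 (-0.39 to 0.04). Neither passed without the second library of VIP-treated mouse 3 (adjusted p = 0.932 and 0.146) or without the first (adjusted p = 0.964 and 0.947). The median log2 fold change of the 9 genes was -0.42, and that of all genes tested was -0.00.

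Cbs, the first transsulfuration enzyme, was the least abundant of the 9 in whole organoids, at 8.0, 7.2 and 22.9 CPM untreated and at 11.2, 6.2, 37.2 and 10.5 CPM with VIP. Mouse 3 stood above the other mice in both groups, and VIP-treated mouse 2 was below its own control. On the log2 scale the change was 0.42 (adjusted p = 0.305, SE 0.20), 0.72 (adjusted p = 0.0755) without the second library of VIP-treated mouse 3 and -0.26 without the first. That pair held 52.8 and 10.6 CPM of Cbs. Mouse 3 also had the highest summed level of 12 stem cell markers, at 5205 CPM untreated and 4429 CPM with VIP, while the other cultures had 2370 to 3587 CPM. The part of cell composition in these Cbs levels was not tested.

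**Figure D1:**
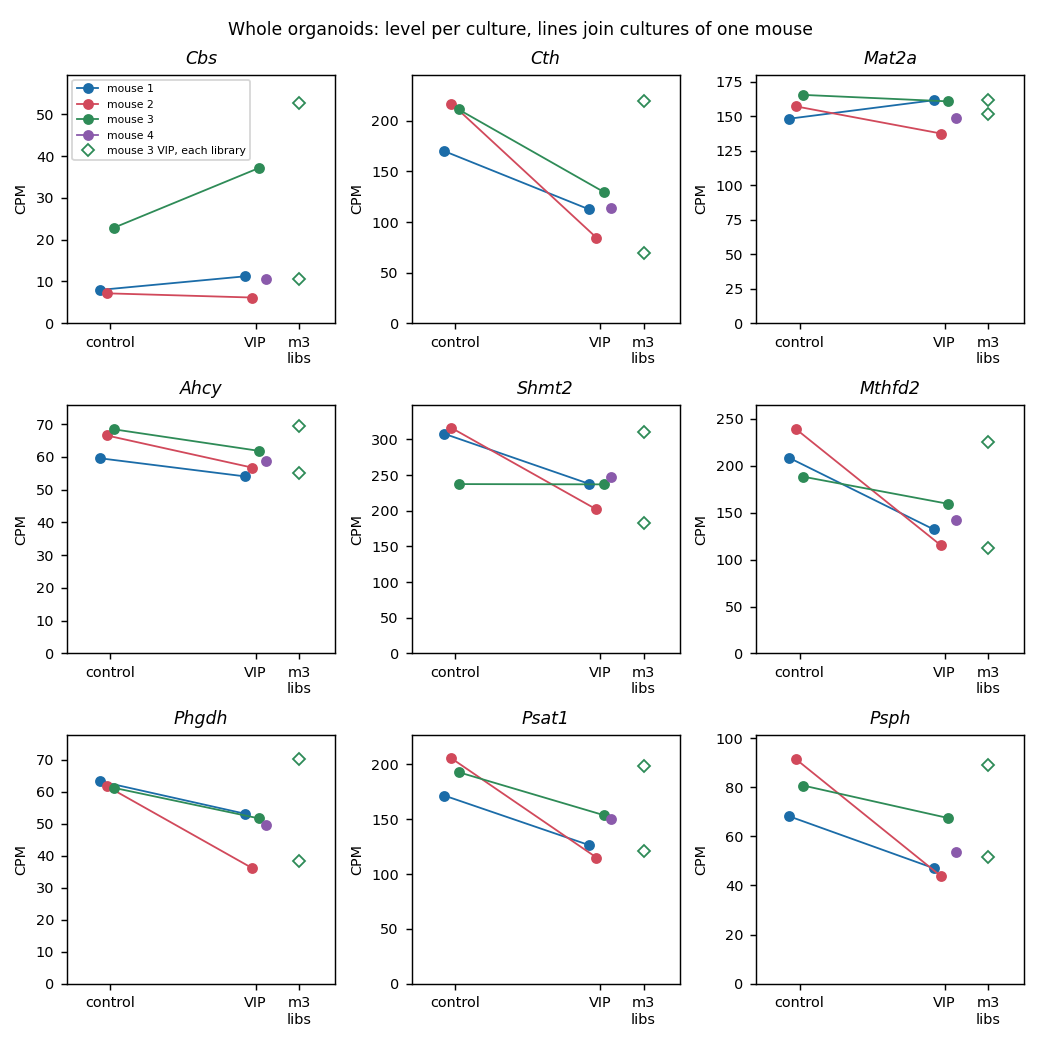
Level in CPM (y axis, from 0) of each of the 9 genes in untreated and VIP-treated whole organoids; points are cultures, lines join cultures of 1 mouse, and open diamonds show the pair of technical libraries of VIP-treated mouse 3 scaled by each library's total UMIs alone. Treated cultures lay below untreated ones for Cth, Mthfd2, Phgdh, Psat1 and Psph, and the diamonds of these genes lay far apart.

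Genes that share the pathways of the 9 were taken from 5 lists. For comparison, 4.82% of all 12727 genes tested in whole organoids were called, 3.72% higher and 1.10% lower. Of 9 further genes for the supply of serine and glycine and of 11 for the methionine cycle, 0 passed in whole organoids. In the folate list 1 of 19 passed: Ggh, which trims folate polyglutamates in the lysosome, rose by a log2 fold change of 1.57 (adjusted p = 1.99e-06, SE 0.11). In the list for the use of cysteine and sulfide 3 of 15 passed, all higher. They were Suox, which oxidizes sulfite to sulfate, at 1.13 (adjusted p = 2.52e-04), Ethe1, which oxidizes persulfide in mitochondria, at 0.69 (adjusted p = 0.00289), and the cystine transporter subunit Slc7a9 at 0.49 (adjusted p = 0.0314). In DESeq2 Slc7a9 did not pass (adjusted p = 0.264). Without the first library of VIP-treated mouse 3, 0 genes of these lists passed: Ggh was at 1.23 (adjusted p = 0.267), Suox at 0.64 (adjusted p = 0.931), Ethe1 at 0.32 (adjusted p = 0.936) and Slc7a9 at 0.32 (adjusted p = 0.932). Without the second, all 4 passed, at 1.70, 1.33, 0.84 and 0.59, and the serine and cysteine lists had 1 and 4 calls. In that fit 1261 of 12684 genes were called.

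In the amino acid response list 3 of 24 genes passed, all lower, against 1.10% of all genes called lower. Of the list, 21 had a negative log2 fold change, with a median of -0.21. The transcription factor Atf5 was at -0.88 (adjusted p = 0.00601), the proline synthesis enzyme Aldh18a1 at -0.59 (adjusted p = 0.0199) and asparagine synthetase, Asns, at -0.48 (adjusted p = 0.0448). In DESeq2 Asns did not pass (adjusted p = 0.102). In the fit without the second library of VIP-treated mouse 3, 1261 of 12684 genes were called. There the list had 11 calls, 10 of them lower, with Atf5 at -1.21, Aldh18a1 at -0.75 and Asns at -0.56 (adjusted p = 0.00443). Without the first it had 0, with these genes at -0.61, -0.43 and -0.38. Beside these values, 8 of 11 goblet cell markers were called higher with VIP, with a summed level of 5890 to 8169 CPM untreated and 8687 to 10642 CPM treated (11861 and 7547 CPM in the first and second library of VIP-treated mouse 3, scaled by total UMIs alone), and 0 of 20 genes of S phase and mitosis were called. Their part in the levels of the 9 genes was not tested.

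**Figure D2:**
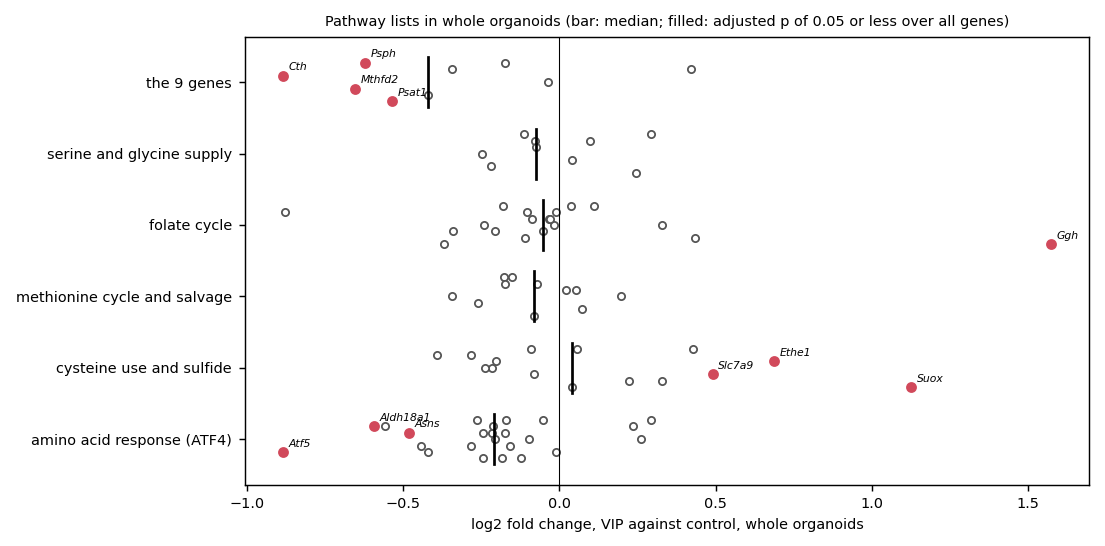
Log2 fold change with VIP in whole organoids (x axis) for the 9 genes and for 5 lists of related genes (y axis); each point is a gene, filled where the adjusted p was 0.05 or less, and the bar is the list's median. The filled points of the 9 genes and of the amino acid response list lay below 0, and those of the folate and cysteine lists, with Ggh at 1.57 farthest, lay above it.

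The next question was whether the stem and progenitor cells themselves responded. In Lgr5-EGFP+ cells after 72 h of VIP, Cbs was the gene of the 9 with the largest log2 fold change and Cth the one with the largest fall in level, but 0 of the 9 passed in edgeR or DESeq2 (2 at an unadjusted p under 0.05). Of all 6778 genes tested, 6 (0.0885%) were called, and 373 had an unadjusted p under 0.05.

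Cbs was at 33.5, 18.3, 14.7 and 18.8 CPM in untreated cells and at 61.7, 41.4, 56.3 and 25.8 CPM in treated cells of mice 1 to 4. Each mouse had more with VIP, although treated mouse 4 stayed below untreated mouse 1. These values rest on 8 to 66 UMIs a sample. This gave a log2 fold change of 1.09 (adjusted p = 0.171, SE 0.28), the 18th smallest p-value of the table.

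Cth was at 65.4, 112.3, 108.3 and 118.0 CPM untreated and at 71.9, 60.2, 64.9 and 46.8 CPM treated. It was lower with VIP in mice 2 to 4 and slightly higher in mouse 1, whose untreated level was already low. The change was, in log2, -0.68 (adjusted p = 0.489, SE 0.21). Mthfd2 was lower in all 4 mice, with a log2 fold change of -0.28 (95% confidence interval -0.64 to 0.07), and Psph was lower in 3 of 4, at -0.47 (-0.95 to 0.01). The other 5 genes had log2 fold changes of -0.14 to 0.07, each with an interval that included 0. In the amino acid response list 0 of 16 genes passed, and 12 were negative, with a median log2 fold change of -0.12.

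The difference between the responses of whole organoids and sorted cells was examined in 1 model over both experiments, which were counted in separate tables and came from different mice. In edgeR 0 of the 9 passed (1 at an unadjusted p under 0.05), with 0.147% of 10186 genes called. Psat1 came closest, with a difference in log2 fold change of 0.59 (95% confidence interval 0.17 to 1.02, adjusted p = 0.560), followed by Cbs at 0.69 (-0.04 to 1.41, adjusted p = 0.807). That a gene passed in whole organoids and not in sorted cells is therefore no measured difference between them.

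The irradiation experiment held a second set of sorted cells under VIP. In non-irradiated Lgr5-EGFP+ cells, 48 h of VIP raised Cbs and lowered Cth, so that the enzymes before and after cystathionine moved in opposite directions. These 2 of the 9 genes passed, against 0.742% of 9976 genes.

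Cbs was at 39.5, 26.9, 32.0 and 29.3 CPM in untreated cells and at 62.7, 61.7, 60.4 and 68.0 CPM with VIP. All treated samples were above all untreated ones and lay close together. The fitted log2 fold change was 0.98 (adjusted p = 7.21e-04, SE 0.15), the 8th smallest p-value of the table.

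Cth was at 84.1, 108.9, 109.9 and 105.8 CPM untreated and at 64.2, 76.8, 80.5 and 79.0 CPM with VIP. The groups did not overlap, and mouse 1 was lowest in both. Its log2 fold change was -0.44 (adjusted p = 0.0394, SE 0.10), which no longer passed when any 1 mouse was left out (adjusted p = 0.0634 to 0.188) or without the mouse block (adjusted p = 0.0703).

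Mat2a was at 124.2, 130.2, 111.0 and 129.1 CPM untreated and at 138.4, 163.3, 131.1 and 142.1 CPM with VIP, higher in every mouse and without overlap. Its log2 fold change of 0.22 (SE 0.08) did not pass (adjusted p = 0.236). Ahcy was at 58.3, 67.6, 59.5 and 83.2 CPM untreated and at 79.5, 85.8, 72.05 and 86.8 CPM with VIP, also higher in every mouse but overlapping, at 0.28 (adjusted p = 0.330, SE 0.12). The groups did not overlap for 3 of the 9 genes, Cbs, Cth and Mat2a, against 6.66% of all genes.

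The serine and folate enzymes, of which 3 of 5 were called lower in whole organoids, had log2 fold changes of -0.25 (Psph), -0.21 (Mthfd2), -0.03 (Psat1), 0.05 (Shmt2) and 0.27 (Phgdh) in these cells. Each of their 95% confidence intervals included 0. Of the 5 related lists, 0 genes passed. In the amino acid response list 16 of 20 genes were negative, with a median log2 fold change of -0.20.

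After 6 Gy, the effect of VIP was again carried by Cbs, the 1 gene of the 9 that passed, against 0.221% of genes. It was at 29.6, 29.1, 23.2 and 37.3 CPM in irradiated cells and at 44.9, 57.3, 57.2 and 70.9 CPM in irradiated cells with VIP. No treated sample reached down to the untreated ones. On the log2 scale the change was 0.94 (adjusted p = 0.00320, SE 0.15), the 7th smallest p-value of the table, and without mouse 3 it was 0.85 and did not pass (adjusted p = 0.110).

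Cth was at 75.7, 79.1, 73.4 and 92.2 CPM in irradiated cells and at 79.6, 69.3, 70.9 and 77.4 CPM with VIP. The groups overlapped, with a log2 fold change of -0.10 (95% confidence interval -0.32 to 0.12). Psat1 was at 117.1, 118.7, 131.4 and 122.0 CPM in irradiated cells and at 113.3, 94.0, 113.8 and 113.6 CPM with VIP, lower in each mouse and without overlap, at -0.17 (adjusted p = 0.958, SE 0.10). Groups did not overlap for 2 of the 9 genes, Cbs and Psat1, against 2.90% of all genes. The other 6 genes had log2 fold changes of -0.14 to 0.10. Of the related genes 0 passed, and Ggh, with 0.66 (adjusted p = 0.0774, SE 0.16), had the smallest p-value. In the amino acid response list 18 of 20 genes were negative, with a median log2 fold change of -0.10.

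The UMI ratio of Cbs to Cth within a sample, which needs no scaling, put these values together. In sorted cells of the irradiation experiment it was 0.32 ± 0.10 (SD, n = 4) untreated, 0.85 ± 0.10 with VIP, 0.37 ± 0.04 after irradiation and 0.78 ± 0.15 after irradiation with VIP. In the first sorted experiment it was 0.24 ± 0.18 untreated and 0.74 ± 0.15 with VIP. In whole organoids it was 0.06 ± 0.04 (n = 3) and 0.14 ± 0.10 (n = 4), with 0.76 and 0.05 in the first and second library of VIP-treated mouse 3. The VIP samples of each sorted experiment lay above all their controls, with a lowest ratio of 0.55 under VIP and a highest of 0.51 without it. The ratio joins values already described for the same samples, so this separation is no further support, and ratios of other gene pairs were not examined. With VIP in irradiated cells, where the levels of Cth overlapped, it mostly restates Cbs.

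**Figure D3:**
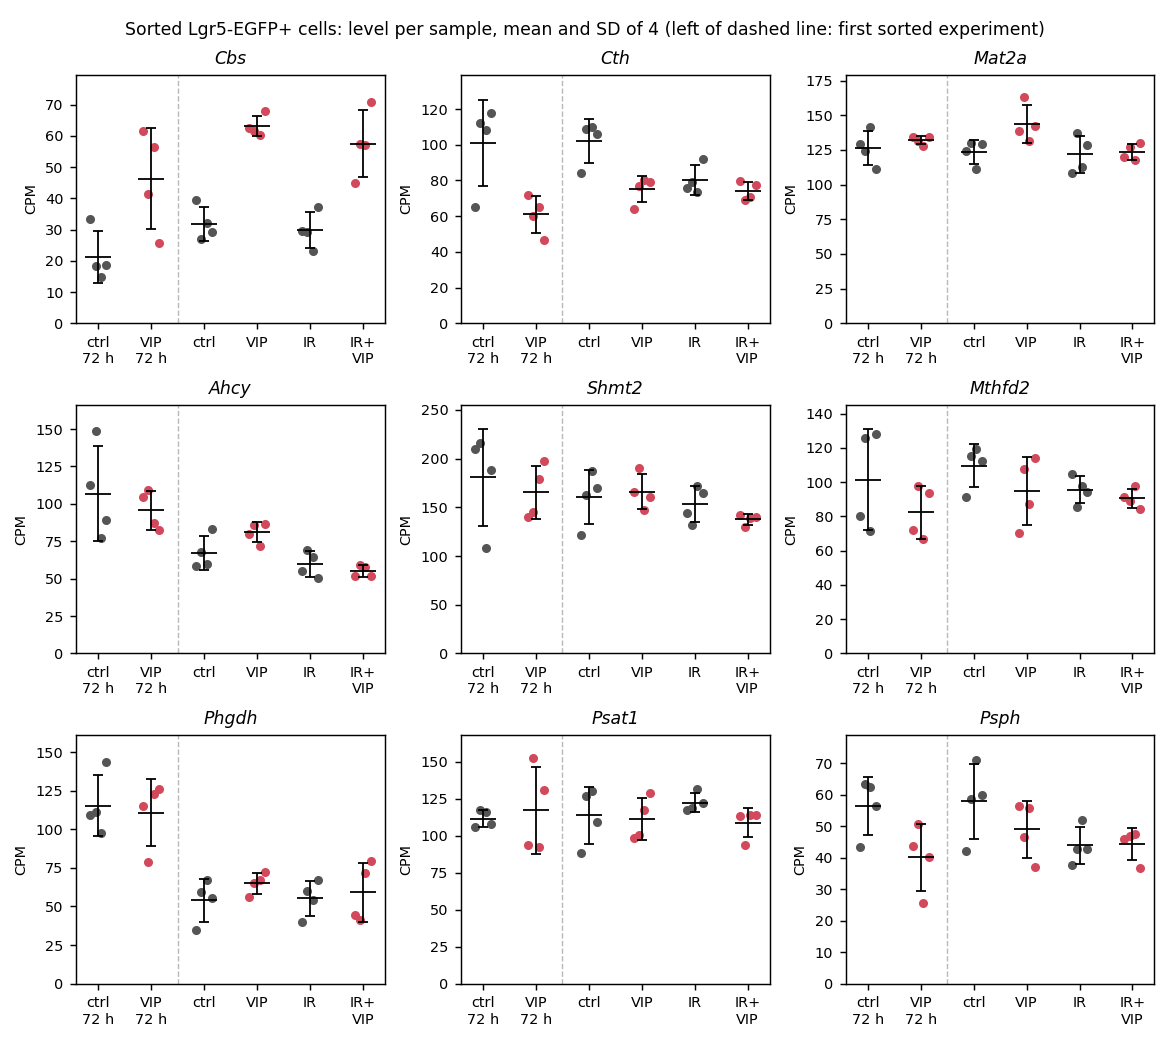
Level in CPM (y axis, from 0) of each of the 9 genes in sorted Lgr5-EGFP+ cells; points are samples (red with VIP), and the horizontal bar and whiskers are the mean and SD of 4. Left of the dashed line is the first sorted experiment, right of it the irradiation experiment (IR, 6 Gy); Cbs was higher with VIP in each pair of groups, with means of 63.2 against 31.9 CPM in non-irradiated cells.

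Irradiation itself was examined without and with VIP. In untreated cells 0 of the 9 genes passed in edgeR or DESeq2 (2 at an unadjusted p under 0.05), against 4.46% of genes, while 10 of 12 p53 target genes on a check list did. Cth was lower after 6 Gy in each of 4 mice, with a log2 fold change of -0.35 (adjusted p = 0.0547, SE 0.10), and Psph likewise, at -0.41 (adjusted p = 0.117, SE 0.14). For both, the groups overlapped through the low non-irradiated sample of mouse 1 (Psph 42.0 CPM before and 37.9 CPM after, other non-irradiated samples 58.8 to 71.0 CPM). Cth passed without mouse 1 (adjusted p = 0.0273). Cbs, at -0.10 (95% confidence interval -0.45 to 0.24), was higher in 2 mice and lower in 2.

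In VIP-treated cells all 9 genes had a negative log2 fold change with irradiation, and 1 passed, Ahcy, against 3.46% of genes called lower. Their median was -0.14, and that of all genes was 0.001. Cth (-0.007), Psat1 (-0.03) and Mthfd2 (-0.06) lay near 0 and changed sign when some mice were left out. Ahcy was at 79.5, 85.8, 72.05 and 86.8 CPM with VIP alone and at 51.8, 58.9, 57.8 and 51.9 CPM with irradiation and VIP. The groups were well apart, with a log2 fold change of -0.55 (adjusted p = 0.00390, SE 0.12). Mat2a, at -0.21 (adjusted p = 0.113), and Shmt2, at -0.26 (adjusted p = 0.149), were also lower in every mouse and without overlap. Such groups were seen for 3 of the 9 genes, against 6.53% of genes that were lower without overlap.

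Whether the VIP response differed after irradiation was asked by the interaction of both. In edgeR 0 of the 9 and 0 of 9976 genes passed, 2 and 634 had an unadjusted p under 0.05, and DESeq2 also called 0. Cbs had a difference in log2 fold change of -0.04 (95% confidence interval -0.48 to 0.40), Cth of 0.34 (0.03 to 0.65, adjusted p = 0.740) and Ahcy of -0.40 (-0.76 to -0.05, adjusted p = 0.727).

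**Figure D4:**
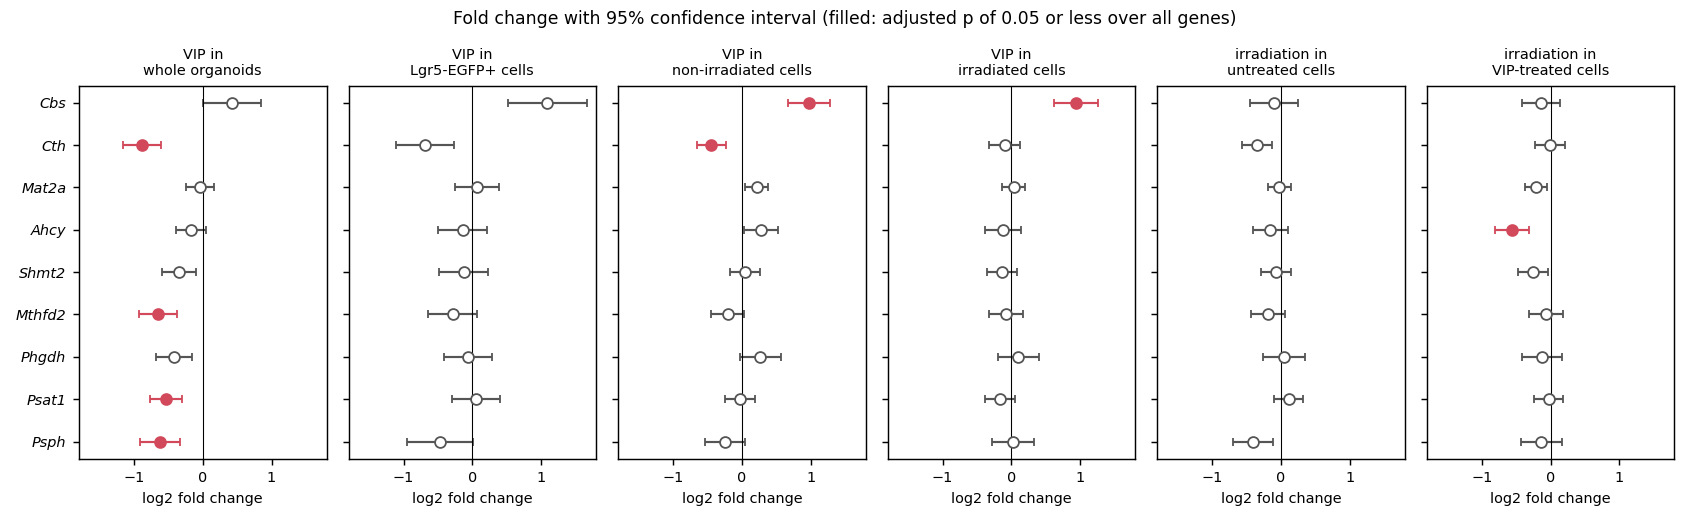
Log2 fold change (x axis) with its 95% confidence interval for the 9 genes (y axis) in 6 comparisons, filled where the adjusted p over all genes was 0.05 or less. The point for Cbs lay between 0.42 and 1.09 in the 4 VIP comparisons and near 0 in both irradiation comparisons, and the points of Cth under VIP ran from -0.88 to -0.10.

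Of the related genes, 3 passed after irradiation of untreated cells, where 4.46% of all genes were called. Sesn2, a stress protein that is also a p53 target, rose by 1.57 (adjusted p = 1.10e-05), the stress-induced coregulator Nupr1 by 0.47 (adjusted p = 0.0216) and glutathione synthetase, Gss, by 0.27 (adjusted p = 0.0357). In VIP-treated cells 7.78% of all genes were called with irradiation. There 2 of 8 genes of serine and glycine supply fell, the glutamine and neutral amino acid transporter Slc1a5 by 0.53 (adjusted p = 8.22e-04) and the cytosolic serine hydroxymethyltransferase Shmt1 by 0.27 (adjusted p = 0.0344). Gclc, which catalyzes the first step of glutathione synthesis, rose by 0.49 (adjusted p = 0.0363), Ggh by 0.49 (adjusted p = 0.0474), Sesn2 by 1.66 (adjusted p = 2.05e-06) and Nupr1 by 0.51 (adjusted p = 0.0101), and Asns fell by 0.30 (adjusted p = 0.0348). Nupr1 in untreated cells did not pass without mouse 3 or without mouse 4 (adjusted p = 0.209 and 0.242), without the mouse block (adjusted p = 0.142) or in a fit of the 2 groups alone (adjusted p = 0.0584), and Nupr1 in VIP-treated cells did not pass without the block (adjusted p = 0.0858). With 1 mouse left out in turn, the adjusted p of Gss ran up to 0.388, and Gclc, Ggh, Shmt1 and Asns in VIP-treated cells ran up to 0.237, 0.170, 0.168 and 0.180. In DESeq2 the changes of Gss, Shmt1, Gclc, Ggh and Asns did not pass (adjusted p = 0.0847 to 0.112).

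Markers of other cell types moved with irradiation in the sorted cells. With irradiation of untreated cells, 7 of 11 goblet cell, 5 of 11 enterocyte and 4 of 9 enteroendocrine markers tested were called higher. Of 11 stem cell markers, 6 were positive and 2 were called, both lower. In untreated cells 11 of 11 Paneth cell markers were called higher, their summed level running from 10642 to 15657 CPM without and from 15571 to 29936 CPM with irradiation. In VIP-treated cells 10 of 11 were, and their sum ran from 9110 to 10340 CPM and from 15588 to 18016 CPM. With VIP in non-irradiated cells the 11 Paneth cell markers were all negative and 0 were called, while the summed level of stem cell markers ran from 3936 to 5066 CPM untreated and from 5906 to 6421 CPM treated. Of 11 stem cell markers tested there, 9 were positive and 1 was called, higher. With VIP in irradiated cells, 11 of 11 Paneth cell and 11 of 11 enterocyte markers tested were negative, 0 and 1 of them called, and the stem cell sum ran from 2993 to 3532 CPM untreated and from 3660 to 4320 CPM treated. Here too 9 of 11 stem cell markers were positive and 1 was called, higher. With irradiation of VIP-treated cells, the stem cell sum ran from 5906 to 6421 CPM and from 3660 to 4320 CPM, and 8 of 9 enteroendocrine markers were called higher. Of the 11 stem cell markers tested, 7 were negative and 4 positive, with 3 called lower and 1 higher, so the sum does not stand for each marker. Vim, a mesenchymal marker and the 1 non-epithelial marker tested, was called higher with irradiation in untreated (adjusted p = 2.92e-04) and VIP-treated cells (adjusted p = 0.00390). With VIP in the first sorted experiment, 11 of 11 stem cell markers tested were positive and 0 were called. There 9 of 9 goblet cell markers were negative and 1 was called. The part of these shifts in the levels of Cbs, Cth and Ahcy was not tested.

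Over all 31 samples, log2 levels were centred on the mean of each experiment and correlated across samples, which share mice and depth within an experiment. The genes most like Cbs of 6730 were Aqp1 (Pearson r = 0.84), Strap (0.83), Zyx (0.81), Stk38l (0.77) and Sgsm3 (0.77). Those most like the mean of the standardised profiles of the 9 genes were Asns (0.83), Ifrd2 (0.75), Adpgk (0.75), Pck2 (0.75) and mt-Nd1 (0.72). Among the 9 themselves, 27 of 36 pairs correlated positively, with a median r of 0.25. Cth and Psph (0.71), Cth and Mthfd2 (0.67) and Mthfd2 and Psat1 (0.64) were highest, and Cbs was negative with Mthfd2 (-0.27), Cth (-0.27) and Psph (-0.24) and highest with Mat2a (0.44). With mouse means removed the order changed: Tpx2 (0.88), Sgsm3 (0.81), Fam49b (0.81), Aqp1 (0.79) and Zfp36l2 (0.79) were most like Cbs, and Asns (0.86), Pck2 (0.84), Hspa8 (0.81), Atad3a (0.77) and Rpl23 (0.77) most like the mean profile. Cbs then correlated at -0.52 with Cth and -0.47 with Psph.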

How the data were processed

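Poly(A) RNA of 37 libraries (31 samples) was converted to barcoded 3′ libraries with UMIs, and the authors processed the reads with the Drop-seq pipeline against GRCm38 with GENCODE annotation; whether counting used strand is not given in the sources used here. The deposited files are 3 tables of raw counts (UMIs per gene symbol and library), and all 37 columns were used. Technical libraries of a culture were summed.

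Genes passing edgeR's filterByExpr were scaled by TMM within a table (irradiation groups in 1 fit) and tested by the quasi-likelihood F-test with group and mouse as terms (edgeR 4.0.16, limma 3.58.1, R 4.3.3), with Benjamini-Hochberg adjustment over all genes tested, an adjusted p of 0.05 as the threshold and 95% confidence intervals. CPM values for correlations were log2 with a prior count of 2. Mouse numbers come from the organoid line in the labels. Deviations of same-mouse samples correlated at 0.27 to 0.63 in whole organoids, and those of different mice at -0.54 to 0.33. In the first sorted experiment these ranges were 0.03 to 0.21 and -0.14 to 0.15. In the irradiation experiment they were -0.07 to 0.16 and -0.20 to 0.20, so same-mouse samples did not stand apart there. P-values rest on the spread left after the mouse term, that of differences within mice, with 1 culture per mouse and condition. The irradiation groups share 1 estimate of it. On simulated counts for whole organoids (12518 genes), 91.0% of genes changed by 1 log2 unit were recovered, and 6.83% of calls were false; the shares were 95.0% and 4.43% for the first sorted experiment (6497 genes) and 87.0% and 4.59% for VIP in irradiated cells (9812 genes). The simulated samples were drawn independently, without mouse effects or a discordant pair of technical libraries, and the changed genes were taken from the better counted ones. The shares therefore check the code and are not error rates of the calls above.

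The 9 genes, the related lists and the markers were chosen with earlier results of these data known. All 9 genes were named throughout; of each related list at most 4 genes past the threshold with the smallest p-values, or at most 2 where none passed, and the 5 genes most like a profile. 5 listed genes, in none of the tables, were not analysed here. Alternatives were DESeq2 1.42.0, other scalings, no filter, no mouse block, fits of the 2 groups compared, each mouse left out and single technical libraries; DESeq2 without independent filtering and leaving out the first library of VIP-treated mouse 3 were added after seeing the data.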

Additional observations from a re-analysis of the deposited data

Results flagged for a closer look

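Over 63 sets of 4 samples (each of the 9 genes in each group of 4), 4 held a sample whose gap to the others passed Dixon's 95% critical value, where chance flags about 1 in 20. In VIP-treated whole organoids, Cbs in mouse 3 was at 37.2 CPM, and the other 3 cultures were at 6.16 to 11.2 CPM; this culture is the one whose technical libraries differed most, at 52.8 and 10.6 CPM of Cbs. In non-irradiated untreated cells, Cth in mouse 1 was at 84.1 CPM, below the others at 105.8 to 109.9 CPM. In irradiated VIP-treated cells, Psat1 in mouse 2 was at 94.0 CPM, below 113.3 to 113.8 CPM, and Psph in mouse 4 was at 36.8 CPM, below 45.9 to 47.7 CPM.

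Ahcy had opposite signs under VIP in 2 experiments and passed in neither (adjusted p = 0.437 and 0.330). Its mean within-mouse log2 difference was -0.17 in whole organoids after 72 h, lower in 3 of 3 mice, and 0.28 in non-irradiated Lgr5-EGFP+ cells after 48 h, higher in 4 of 4. The difference between these was not tested, and the experiments differ in cells, duration and mice.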

How the results depend on the processing

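For the 9 genes, 73 of 86 counts of calls under an alternative stayed within 1.5 times the main count, and 724 of 786 values kept their direction and side of the threshold; where a value changed, the cause was not tested. In whole organoids the 4 calls became 1 without the mouse block (the call of Cth), 7 with first technical libraries only (Cbs higher at 0.91, 6 lower), 6 without the second and 0 without the first library of VIP-treated mouse 3, where Cbs was -0.26; leaving out 1 mouse gave 1 (without mouse 2) to 6 (without mouse 3). In non-irradiated cells the 2 calls became 1 without the block, 1 in DESeq2 without independent filtering and 1 to 1 with any mouse left out; default DESeq2 gave some of the 9 genes no adjusted p there and in the model over both compartments and is not counted. VIP in irradiated cells had 0 to 1 calls with a mouse left out (0 without mouse 3), and irradiation of untreated cells 0 to 1 (Cth, without mouse 1) and 1 by library size only (Cth, adjusted p = 0.0499). The other counts of the 9 genes stayed within 1.5 times the main count. Counts of the related lists moved in 52 cases; in whole organoids the amino acid response list ran from 0 to 14 calls, the cysteine list from 0 to 6, the folate list from 0 to 4 and the serine list from 0 to 2. Among related genes, Asns and Slc7a9 lost their calls in whole organoids in 7 and 6 of 13 alternatives, Aldh18a1 in 5, and Gss after irradiation in 7 of 11. Small values changed sign. By library size only, Cth under irradiation with VIP was 8.4e-04, and with no filter Asns under VIP in non-irradiated cells was -0.0022. Leaving out 1 mouse changed signs as follows, in log2. The ranges were, for irradiation in untreated cells, Ahcy -0.23 to 0.021, Cbs -0.24 to 0.031, Mat2a -0.065 to 0.048, Phgdh -0.030 to 0.17, Shmt2 -0.16 to 0.0075. For irradiation in VIP-treated cells, Atf5 -0.45 to 0.26, Cth -0.11 to 0.061, Mthfd2 -0.18 to 0.082, Psat1 -0.099 to 0.034. For VIP by compartment interaction, Ahcy -0.045 to 0.12, Psph -0.12 to 0.55. For VIP by irradiation interaction, Cbs -0.15 to 0.019. For VIP in irradiated cells, Mat2a -0.0091 to 0.079, Psph -0.069 to 0.096. For VIP in Lgr5-EGFP+ cells, Mat2a -0.00054 to 0.13, Phgdh -0.18 to 0.063, Psat1 -0.070 to 0.16, Shmt2 -0.37 to 0.042. For VIP in non-irradiated cells, Asns -0.022 to 0.044, Psat1 -0.12 to 0.079, Shmt2 -0.060 to 0.19. For VIP in whole organoids, Mat2a -0.12 to 0.041. The 10 genes named as most like Cbs or the mean profile had r of 0.56 to 0.86 with mouse means removed, but 2 of the 5 in each list kept a place in it. The 2 sorted experiments had at most 1876730 UMIs a sample, and Cbs rested on 8 to 66 UMIs in the first.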
